A study of Mus musculus with 36 samples.

Results

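The genes described here are those of cholesterol synthesis and of its control by the transcription factor SREBP2, measured in the livers of 5 mouse lines with mutations that cause neural tube defects and of their wild type controls. They were named as a list of 28 genes, and members were all probe sets of the array that the platform's annotation assigns to one of them. In all, 26 of the 28 genes had at least 1 probe set, with 59 probe sets of 45101 on the array and 26 genes of 18193 named symbols. Acat2, which makes acetoacetyl-CoA, and Soat2, which esterifies cholesterol, had no probe set named here and are not analysed. Each of 9 groups held 4 female mice with 1 array per mouse. The Pax3 group were Pax3Sp2H heterozygotes and the Apob group Apobtm1Unc heterozygotes, and C57BL/6J wild type mice (B6) were the control of both. Lrp6Cd heterozygotes (Cd-Het) stood against wild type mice of that line (Cd-WT), and Vangl2Lp heterozygotes (Lp-Het) against wild type mice of theirs (Lp-WT). The Ct group came from a random-bred colony in which the labels take each animal as ct/ct, and its control was CBA/CaJ wild type (CBA), so that the ct genotype and the stock cannot be told apart. Mice were 6 to 8 weeks old and fasted for 4 to 5 hours. The labels class the Pax3 and Cd lines as responsive to dietary FA (folic acid) and the Apob, Ct and Lp lines as resistant.

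Cholesterol is built from acetyl-CoA through mevalonate, isoprenoid diphosphates, squalene and lanosterol. SREBP2 is held in the endoplasmic reticulum by SCAP and the INSIG proteins while sterols are plentiful. When sterols fall, SCAP escorts it to the Golgi for cleavage, and the freed domain raises transcription of nearly every enzyme of the route. The liver is a main site of this synthesis, and its enzyme transcripts are known to move with feeding and with time of day. In whole liver RNA, a lower signal cannot be told apart from fewer cells that express the gene.

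SREBP2 binds sterol regulatory elements, commonly beside a box for the factor NF-Y, and the upstream sequences of 6 members whose values are given mouse by mouse are shown with such letters. Sequences and starts are from RefSeq, on GRCm38.p6, which matched 22 of the 28 genes with 28 start sites. Each runs 5′ to 3′ on the gene's strand toward the transcription start, and stops before the first base of the gene model. Capitals mark TCACCNCA (the core of a sterol regulatory element), CCAAT (the NF-Y box) and CACGTG (an E-box), found on either strand. The search covered the full 250 bases before each start, of which Mvk and Lss are printed up to 245 and 210, where the gene model begins.
Hmgcs1, chr13:119690101-119690350, plus strand: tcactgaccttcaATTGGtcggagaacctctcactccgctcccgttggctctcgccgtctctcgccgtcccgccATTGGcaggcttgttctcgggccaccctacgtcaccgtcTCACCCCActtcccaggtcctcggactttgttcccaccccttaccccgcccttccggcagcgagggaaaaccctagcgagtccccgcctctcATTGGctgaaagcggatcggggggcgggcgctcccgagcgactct
Mvk, chr5:114444019-114444263, plus strand: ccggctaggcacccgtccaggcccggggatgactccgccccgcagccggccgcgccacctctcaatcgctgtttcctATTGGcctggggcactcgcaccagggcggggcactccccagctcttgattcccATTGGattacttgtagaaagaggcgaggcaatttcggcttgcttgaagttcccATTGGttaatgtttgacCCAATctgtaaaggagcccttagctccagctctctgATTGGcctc
Idi1, chr13:8885356-8885605, plus strand: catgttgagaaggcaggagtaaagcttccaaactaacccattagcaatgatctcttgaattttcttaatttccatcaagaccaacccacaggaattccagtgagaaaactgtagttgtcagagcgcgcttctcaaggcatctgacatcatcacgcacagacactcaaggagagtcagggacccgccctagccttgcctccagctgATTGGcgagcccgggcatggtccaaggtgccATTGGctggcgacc
Lss, chr10:76531355-76531564, plus strand: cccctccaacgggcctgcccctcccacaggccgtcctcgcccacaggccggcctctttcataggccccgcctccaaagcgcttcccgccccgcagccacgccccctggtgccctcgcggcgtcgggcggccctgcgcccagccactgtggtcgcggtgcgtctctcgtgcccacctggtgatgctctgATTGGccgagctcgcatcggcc
Cyp51, chr5:4104698-4104947, minus strand: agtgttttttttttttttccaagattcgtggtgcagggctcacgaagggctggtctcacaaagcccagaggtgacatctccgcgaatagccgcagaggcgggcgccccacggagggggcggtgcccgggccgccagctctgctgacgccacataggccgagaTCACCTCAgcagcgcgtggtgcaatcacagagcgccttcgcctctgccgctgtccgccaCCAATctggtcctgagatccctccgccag
Insig1, chr5:28071162-28071411, plus strand: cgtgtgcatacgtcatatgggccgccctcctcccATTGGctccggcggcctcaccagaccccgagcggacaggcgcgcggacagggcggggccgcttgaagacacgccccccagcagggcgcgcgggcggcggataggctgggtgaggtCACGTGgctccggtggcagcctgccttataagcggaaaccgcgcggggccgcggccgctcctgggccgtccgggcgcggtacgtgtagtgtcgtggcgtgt
TCACCNCA was found in 4 of 28 windows of 250 bases before a member's start (14.3%), against 3.61% of 32851 windows of the same length before all starts in the table. The 4 genes were Hmgcs1, Cyp51, Hsd17b7 and Srebf2, and in Hmgcs1 the match, TCACCCCA, ends 130 bases before the start. CCAAT was found in 20 of 28 windows (71.4%) against 33.8% of all, and CACGTG in 5 of 28 (17.9%) against 6.02%. The longer and exact element known as SRE-1 was found in 0 of 28, and in 0.0731% of all. The marked motifs do not overlap in the windows printed. They were chosen with the members known, and a match is a description of letters and not of a bound site.

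In quality 2 arrays stood apart from the other 34, which varied among themselves. The GAPDH control signal, 3′ over 5′, stood at 0.729 to 0.956 on 34 arrays, 52.5 on CBA 4 and 1.72 on Ct 3, and the median correlation with the other arrays was 0.926 to 0.960, 0.841 and 0.899. The same ratio of the actin control was 1.63 to 2.93, 31.0 and 3.71. Among the 34, Ct 2 had the lowest correlation (0.926, actin ratio 2.65) and Lp-Het 4 the highest actin ratio (2.93, correlation 0.936). Differences between Ct and CBA that turn or move by a large part without these arrays are given both ways. The 6 hepatocyte markers (Alb, Ttr, Apoa1, Cps1, Tat and Ahsg) had signals of at least 8753 on every array. Their median log2 difference, mutant minus control, was -0.38 in Pax3, -0.22 in Apob, -0.06 in Cd-Het, 0.28 in Ct and 0.28 in Lp-Het. The part of these shifts in the members' differences was not tested.

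Values are log2 of the signal plus 23.1, the brightest probe set stands for each gene, and a difference is mutant minus control ± the standard error of a limma fit to 12836 genes. Calls were made where the Benjamini-Hochberg adjusted p, taken over all of them, was under 0.05. All 26 genes with a probe set passed the filter on dim signals. In Ct mice 4 of 26 members were called, all lower than in CBA, where 7.09% of all genes tested were called and 3.44% were called lower. These 4 were Hmgcs1, Fdft1, Lss and Insig1. In Apob heterozygotes 0 of 26 were called, with 0.553% of all genes called, and in Lp-Het 0 of 26 with 0.0312%. In Pax3 and in Cd-Het 0 of 26 members were called, where 0% of all genes were.

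Below an unadjusted p of 0.05 lay 6 members in Apob (11% of all genes), 10 in Ct (24.5%), 1 in Lp-Het (7.16%), 0 in Pax3 (5.36%) and 0 in Cd-Het (2.1%). The median member difference was -0.55 in Apob, -0.55 in Ct, -0.43 in Cd-Het, -0.10 in Lp-Het and -0.06 in Pax3, and that of all genes tested lay between -0.03 and 0.02. All 18 synthesis enzymes had negative differences in Apob and all 18 in Cd-Het, but as these genes varied together from mouse to mouse (below), they are not 18 separate pieces of evidence. Members also had 26 probe sets past the filter that do not stand for their gene, though some members had none. Of these 26 probe sets, 24 were negative in Cd-Het and 16 in Apob. In Lp-Het 16 of 26 were negative as well, in Ct 18 and in Pax3 11. The Pax3 and Apob comparisons share the B6 mice.

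**Figure D1:**
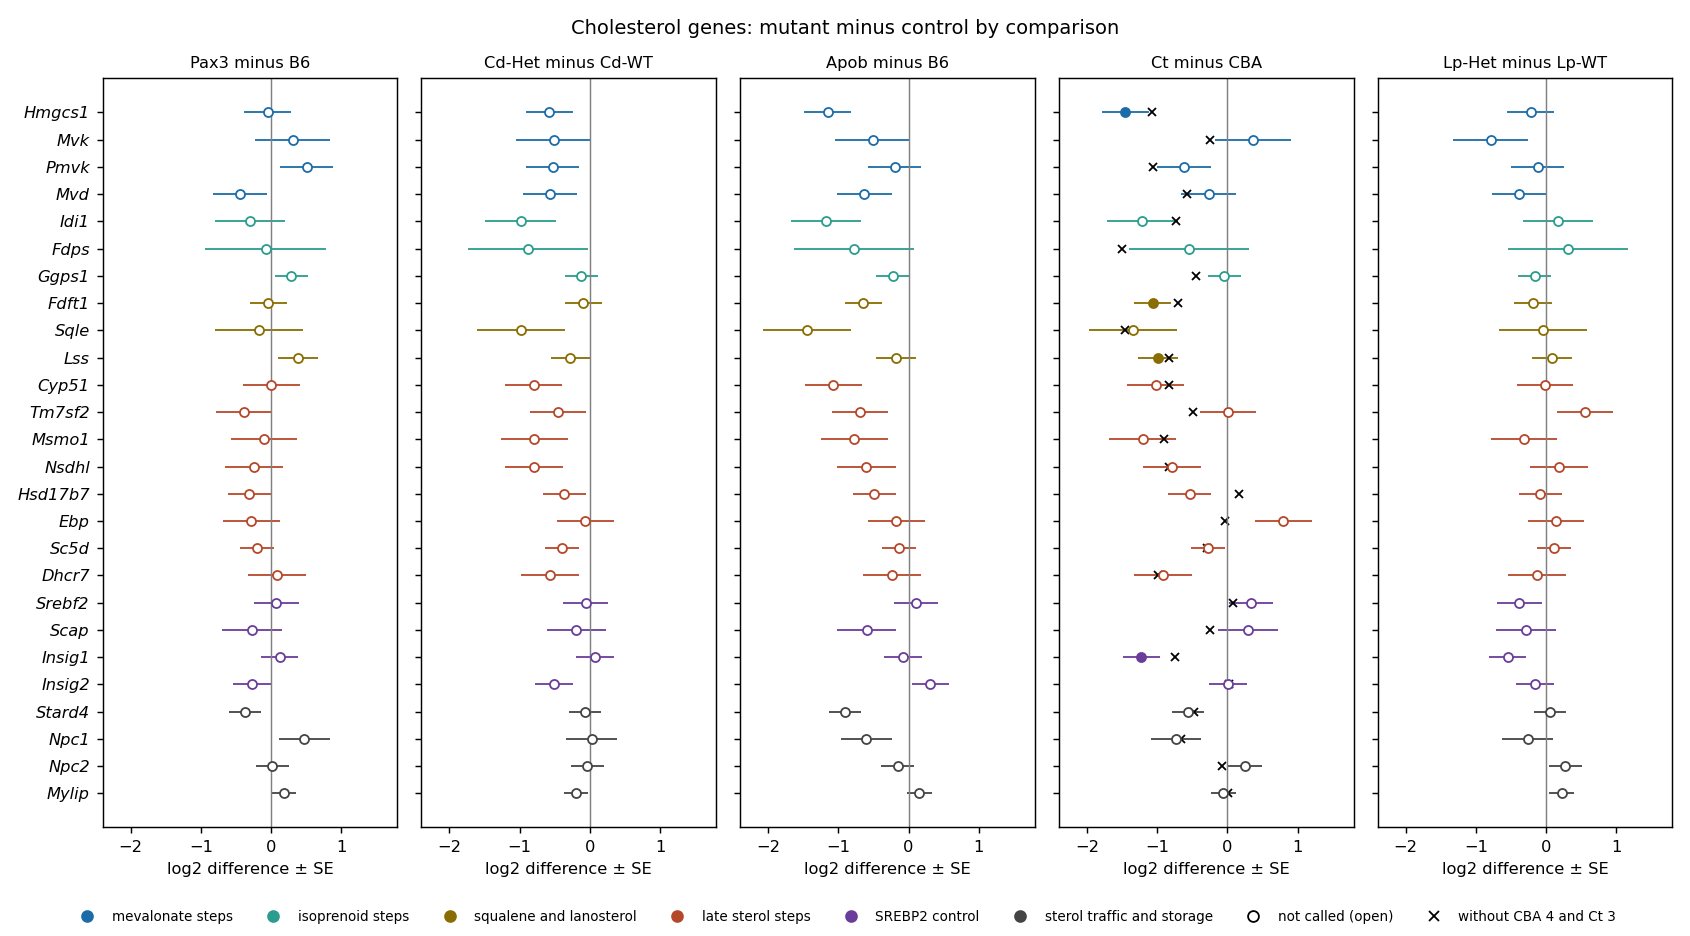
Difference of each of 26 genes between mutant and control (log2, mutant minus control, horizontal axis) in the 5 comparisons, in pathway order from top to bottom, with the standard error of the limma fit as a bar. Filled points were called, which holds for Hmgcs1, Fdft1, Lss and Insig1 in Ct; crosses give the Ct values without CBA 4 and Ct 3, where none was called.

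The mevalonate steps were represented by Hmgcs1, which condenses acetyl-CoA and acetoacetyl-CoA, by the kinases Mvk and Pmvk, and by the decarboxylase Mvd. The upstream sequence of Hmgcs1 printed above holds the element core. Its signals were 5538, 9342, 9668 and 10820 in CBA and 4005, 2741, 1783 and 4831 in Ct. All 4 Ct mice lay below all 4 CBA mice, and Hmgcs1 fell by 1.45 ± 0.33 in Ct (limma adjusted p = 0.00798). Without CBA 4 and Ct 3 the difference was -1.07 ± 0.37 with the 3 against 3 mice still apart, and it was no longer called (limma adjusted p = 0.137), nor was it without Ct 3 alone (adjusted p = 0.0616).

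In Apob heterozygotes the Hmgcs1 signals were 6143, 5247, 5076 and 5028, against 14148, 17674, 10165 and 7994 in B6. The Apob mice were close to each other and all below the lowest B6 mouse. The difference of -1.15 ± 0.33 was not called (limma adjusted p = 0.121), and without the 2 arrays of CBA and Ct, which enter it only through the filter and the shared spread of the fit, it was (adjusted p = 0.0427, with 2 of 26 members called in that fit, where 2.57% of all genes were). The 3 other probe sets of Hmgcs1 that passed the filter gave -0.87 to -0.59 in Apob and -1.59 to -0.93 in Ct. In Pax3, which has the same controls, signals of 17880, 18226, 8546 and 6431 spanned the B6 range and the difference was -0.05 ± 0.34.

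Mvk had the largest difference of Lp-Het by size, with signals of 224, 189, 120 and 454 against 611, 287, 442 and 326 in Lp-WT. The groups overlapped, since the highest Lp-Het mouse exceeded 3 of the 4 controls (-0.79 ± 0.54, limma adjusted p = 0.779). Pmvk ranged from -0.62 in Ct to 0.51 in Pax3 and Mvd from -0.63 in Apob to -0.26 in Ct, and none of these was called. With CBA 4 and Ct 3 left out the Ct differences were -1.06 for Pmvk, -0.57 for Mvd and -0.25 for Mvk, which stood at 0.37 with all arrays.

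Among the isoprenoid steps, Idi1 interconverts the 2 isoprene units, Fdps builds farnesyl diphosphate and Ggps1 its longer relative for protein prenylation. Idi1 was among the 2 members of smallest p in Cd-Het, with signals of 1219, 2504, 1787 and 1325 against 2523, 5564, 2029 and 4007 in Cd-WT. Only one Cd-Het mouse exceeded the lowest control, and the difference was -0.99 ± 0.50 (limma adjusted p = 1.00). Idi1 was -1.18 in Apob and -1.21 in Ct (-0.73 without CBA 4 and Ct 3), also without a call. Fdps ran from -0.88 in Cd-Het to 0.32 in Lp-Het with a standard error of 0.86. That error rests largely on CBA 4, at a signal of 186 where the other CBA mice were at 11412 to 16108; without both doubtful arrays Fdps was -1.51 ± 0.61 in Ct (adjusted p = 0.239). Ggps1 lay between -0.23 and 0.29 in the 5 comparisons, and at -0.45 in Ct without the 2 arrays. Its 3 other probe sets were positive in Apob, at 0.28 to 0.69, against -0.23 for the one that stands for the gene. In Pax3 the latter's 4 signals of 439 to 521 all lay above those of B6, 343 to 406 (1 of 26 members higher without overlap, 2.24% of all genes).

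Squalene synthase (Fdft1), squalene epoxidase (Sqle) and lanosterol synthase (Lss) commit farnesyl diphosphate to sterols and close the ring. Fdft1 signals were 5228, 6428, 6543 and 5023 in CBA and 3733, 3237, 1118 and 4193 in Ct. The Ct mice all lay below the CBA mice, with Ct 3 lowest, and Fdft1 fell by 1.06 ± 0.27 (limma adjusted p = 0.0141). Without CBA 4 and Ct 3 it was -0.70 ± 0.22 (adjusted p = 0.0944), without Ct 3 alone it was not called either (adjusted p = 0.0931), and the only other Fdft1 probe set past the filter gave -0.32 ± 0.41 with all arrays.

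Lss signals were 1262, 1988, 1858 and 1253 in CBA and 1102, 944, 435 and 782 in Ct. The groups were apart by a small gap, and Lss fell by 0.99 ± 0.28 in Ct (limma adjusted p = 0.0303). Its 2 other probe sets gave -1.63 and -0.66. The call was lost without CBA 4 and Ct 3 (-0.82 ± 0.30, adjusted p = 0.168), without Ct 3 alone (adjusted p = 0.147), without CBA 2 (0.0586), without CBA 3 (0.0532) and with median centring (0.0578). In Pax3, where Lss was among the 2 members of smallest p, signals were 1604, 1180, 766 and 496 against 704, 925, 585 and 628 in B6. The Pax3 mice lay on both sides of the controls (0.39 ± 0.28, adjusted p = 0.999).

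Sqle had the most negative difference in Apob, -1.45 ± 0.63 (limma adjusted p = 0.357), and was -1.34 in Ct (-1.46 without CBA 4 and Ct 3) and -0.97 in Cd-Het. Its signals were 344, 695, 259 and 631 in Apob and 1363, 2581, 566 and 1254 in B6. One B6 mouse lay below 2 of the Apob mice, so the groups overlapped. Pax3 signals of 2329, 2067, 1476 and 209 had a standard deviation of 1.56 on the log2 scale, against 0.88 in B6 and 0.65 in Apob.

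**Figure D2:**
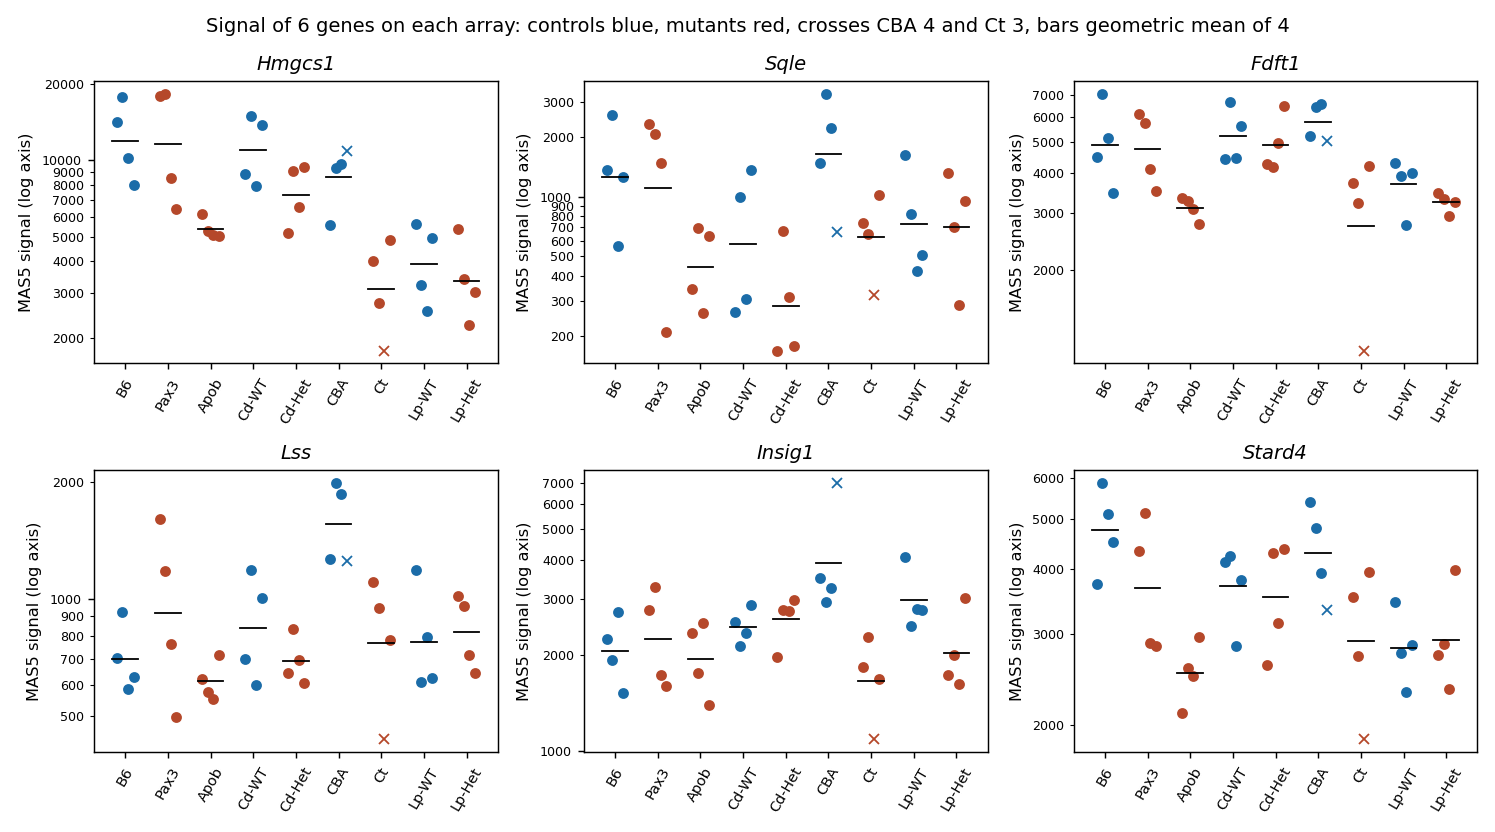
MAS5 signal (vertical, log axis) of Hmgcs1, Sqle, Fdft1, Lss, Insig1 and Stard4 in each mouse of the 9 groups (horizontal), controls in blue and mutants in red, with bars at the geometric mean of 4 mice and crosses for CBA 4 and Ct 3. The 4 Apob mice lie below the 4 B6 mice for Hmgcs1, Fdft1 and Stard4, and the 4 Ct mice below the 4 CBA mice for Hmgcs1, Fdft1, Lss and Insig1.

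The late steps strip methyl groups from lanosterol and move its double bonds. They comprise Cyp51, the lanosterol demethylase, Tm7sf2, a sterol reductase, the demethylation enzymes Msmo1, Nsdhl and Hsd17b7, the isomerase Ebp, the desaturase Sc5d and the reductase Dhcr7. Cyp51, the second gene printed above with the element core, had signals of 879, 928, 686 and 937 in Apob and 2092, 3469, 1050 and 1404 in B6. All Apob mice were lower, and the difference was -1.07 ± 0.40 (limma adjusted p = 0.265). In Cd-Het the signals were 613, 1015, 998 and 651 against 1157, 2120, 839 and 1893, with 1 control below 2 of the heterozygotes (-0.80 ± 0.40, adjusted p = 1.00). In Ct, Cyp51 was -1.02 ± 0.40 with groups that did not overlap (adjusted p = 0.108), and -0.83 without CBA 4 and Ct 3.

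Tm7sf2 was the only member whose groups did not overlap in Cd-Het, at 5135 to 6365 against 6972 to 9236 (1 of 26 members lower, 1.39% of all genes). It was also lower without overlap in Apob, at 3194 to 4114 against 5445 to 6876, and neither difference was called (-0.45 and -0.69). Msmo1 was -1.21 in Ct, -0.79 in Cd-Het and -0.77 in Apob, and Nsdhl -0.78, -0.79 and -0.60. Hsd17b7, Sc5d and Dhcr7 were negative in Apob, Cd-Het and Ct, at -0.13 to -0.91. Hsd17b7 was at 0.17 in Ct without CBA 4 and Ct 3, and Tm7sf2 was at -0.48 where it had been at 0.02. Msmo1 (-0.91), Nsdhl (-0.83), Sc5d (-0.29) and Dhcr7 (-0.98) kept their sign. Ebp stood at 0.80 ± 0.40 in Ct with all arrays and at -0.04 ± 0.16 without the 2, since CBA 4 had a signal of 1366 and the other CBA mice 15000 to 17090.

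Of the SREBP2 control genes, Srebf2 encodes SREBP2, Scap its escort, and Insig1 and Insig2 the retention proteins, Insig1 being itself a known target of SREBP. Insig1 signals were 3495, 2946, 3257 and 7002 in CBA and 1835, 2288, 1087 and 1678 in Ct. The groups were apart with CBA 4 highest, and Insig1 fell by 1.22 ± 0.27 (limma adjusted p = 0.00515). Without CBA 4 and Ct 3 the 3 Ct mice still lay below the 3 CBA mice, and the difference was -0.74 ± 0.26 (adjusted p = 0.147). Insig1 was also among the 2 members of smallest p in Lp-Het, with signals of 1732, 2000, 1619 and 3020 against 4090, 2472, 2794 and 2787. One heterozygote exceeded 3 controls (-0.55 ± 0.27, adjusted p = 0.692). In Apob, Insig1 was at -0.08 ± 0.27 and Srebf2 at 0.11 ± 0.32. Scap was lower without overlap in Apob, at 2715 to 3939 against 4294 to 5938 (-0.60 ± 0.42, adjusted p = 0.68). Insig2, which is not driven by SREBP2, ran from -0.51 in Cd-Het to 0.31 in Apob. In Ct, Scap was at 0.29 with all arrays and at -0.24 without the 2, and Srebf2 at 0.34 and 0.08.

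Of the genes that move cholesterol, Stard4 carries it between membranes and is a known SREBP2 target. Npc1 and Npc2 release it from lysosomes, and Mylip marks lipoprotein receptors for breakdown. Stard4 signals were 2108, 2572, 2488 and 2959 in Apob and 3748, 5876, 5114 and 4513 in B6. Every Apob mouse was below every B6 mouse, and the difference of -0.91 ± 0.23 was the one of smallest p in that comparison (limma adjusted p = 0.0575). It was called without CBA 4 and Ct 3 (adjusted p = 0.0101). Its 2 other probe sets gave -0.52 ± 0.30 and 0.25 ± 0.22, so they did not share a direction. In Pax3, Stard4 was also among the 2 members of smallest p, at 4324, 5123, 2873 and 2843 (-0.37 ± 0.23, adjusted p = 0.999). Npc1 was -0.60 in Apob, -0.73 in Ct and 0.47 in Pax3, Npc2 lay between -0.15 and 0.27, and Mylip between -0.20 and 0.22. The Ct differences without CBA 4 and Ct 3 were -0.66 for Npc1, -0.07 for Npc2, which had been 0.25, and -0.47 for Stard4.

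Counted over all members, 6 of 26 were lower without overlap in Apob (Hmgcs1, Fdft1, Cyp51, Tm7sf2, Scap and Stard4), where 4.35% of all genes were. In Ct 5 of 26 were (Hmgcs1, Fdft1, Lss, Cyp51 and Insig1), where 3.64% of all genes were, and in Lp-Het 0 (3.43%). With 3 Ct against 3 CBA mice, leaving out CBA 4 and Ct 3, 9 of 26 members were lower without overlap and 0 higher, against 9.35% and 7.34% of all genes. These 9 were Hmgcs1, Pmvk, Fdps, Fdft1, Sqle, Lss, Cyp51, Nsdhl and Insig1. This count of 3 against 3 mice was added after the data were seen. As the synthesis genes varied together from mouse to mouse (below), the members in these counts are not separate pieces of evidence. In that fit 0 of 26 members were called by limma (1.83% of all genes), 11 had an unadjusted p below 0.05 (14.1%), and the median member difference was -0.62.

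Beside the lower members in Ct, 6 of 8 Kupffer cell markers (C1qb, C1qc, Cd5l, Clec4f, Lyz2 and Marco) rose, with a median of 1.47 over the 8. Over all genes tested, 468 of 12836 were called higher in Ct. Their summed signal was 11955 to 84487 in Ct and 4453 to 14659 in CBA, and none was at 0. Without the 2 arrays 0 of 8 markers were called with a median of 0.33. In the same fit 0 of 26 members were called with a median of -0.62, which was -0.55 with all arrays. Dcn of stellate cells, Cela2a of pancreas acinar cells and Ahsg of hepatocytes rose as well, by 1.11, 2.44 and 0.49, and none of them was called without the 2 arrays. Dcn was the only one called of 4 stellate cell markers, whose median was 0.02. Cela2a was 1 of 2 tested acinar markers (median 1.13) and Ahsg 1 of 6 hepatocyte markers (median 0.28). The part of these cells in the members' differences was not tested.

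The synthesis genes differed widely between mice of a group, and together. Over the 9 groups, the pooled standard deviation of a member's log2 values had a median of 0.56, against 0.36 over all genes tested, and 0.42 against 0.30 without CBA 4 and Ct 3. It was above the median of all genes for 22 of 26 members, and for 20 without the 2 arrays. Sqle (0.95 without the 2 arrays), Fdps (0.84) and Idi1 (0.74) varied most. Mylip (0.24) and Ebp (0.19) varied least on the same arrays.

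**Figure D3:**
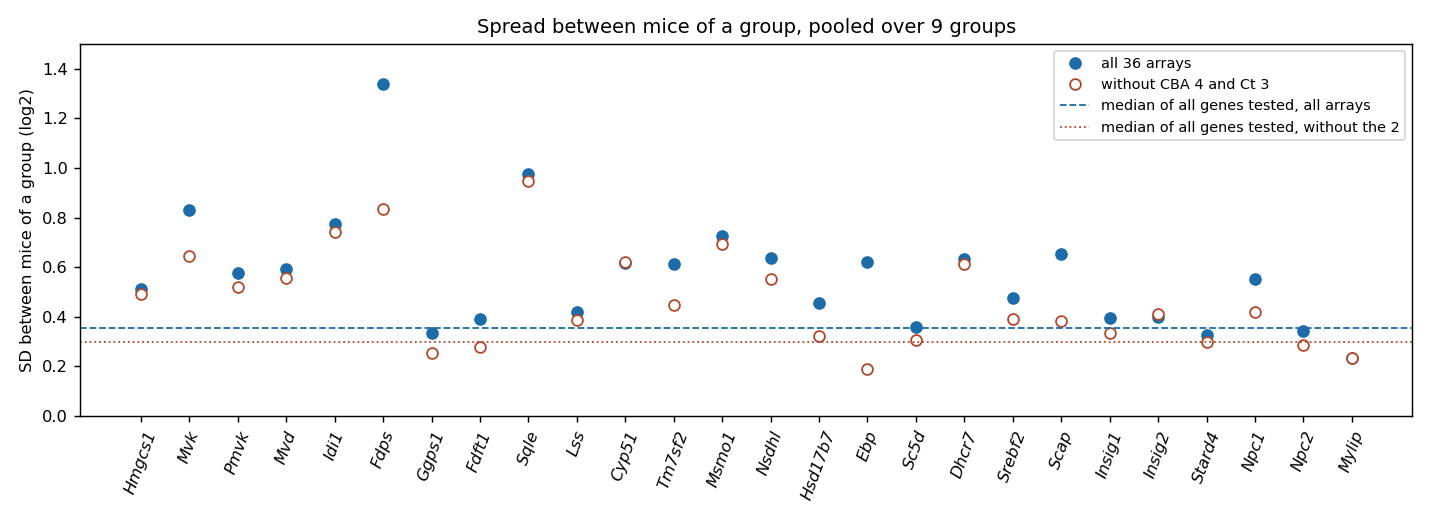
Standard deviation between mice of a group, pooled over the 9 groups (log2, vertical), for each of 26 genes in pathway order, on all 36 arrays (filled) and without CBA 4 and Ct 3 (open), with the median of all genes tested as lines. Without the 2 arrays Sqle, Fdps and Idi1 stand highest, and on all 36 arrays Fdps, Sqle and Mvk do. Ebp drops from 0.62 to 0.19 when the 2 arrays are left out.

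In the Pax3 group, mouse 1 was the highest of the 4 for 16 of 18 synthesis genes and mouse 4 the lowest for 16, while over all genes tested these mice were highest in 21.8% and lowest in 25.5%. The mean of the 18 genes, relative to B6, was 0.71, 0.46, -0.27 and -1.12 in the 4 Pax3 mice. It was 0.11, 0.50, -0.43 and -0.18 in the B6 mice, so the Pax3 mice lay on both sides of their controls. In the Apob mice it was -0.53, -0.58, -0.89 and -0.46, all below the lowest B6 mouse. The Apob group also had the smallest median standard deviation of the 18 genes, 0.24, against 0.47 in B6 and 0.85 in Pax3.

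Other groups had such mice too. Cd-WT 2 and Lp-WT 1 were each highest for 16 of 18 synthesis genes, B6 2 for 13, Lp-Het 1 and Cd-Het 2 for 12. Lp-Het 3 was lowest for 15, Cd-WT 3 for 13, Lp-WT 3 for 12 and B6 3 for 11. The share of all genes highest in these mice was 19.6% to 32.0% for the former and the share lowest was 22.3% to 32.1% for the latter. CBA 4 and Ct 3, each lowest for 13 of 18, were the arrays with the raised 3′ to 5′ ratio, and they were lowest for 40.6% and 23.2% of all genes and highest for 39.8% and 35.9%. In Cd-Het the mean of the 18 genes relative to Cd-WT was -0.80, -0.22, -0.60 and -0.55, and in Cd-WT it was -0.17, 0.47, -0.46 and 0.16, so 1 heterozygote lay within the range of the controls.

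**Figure D4:**
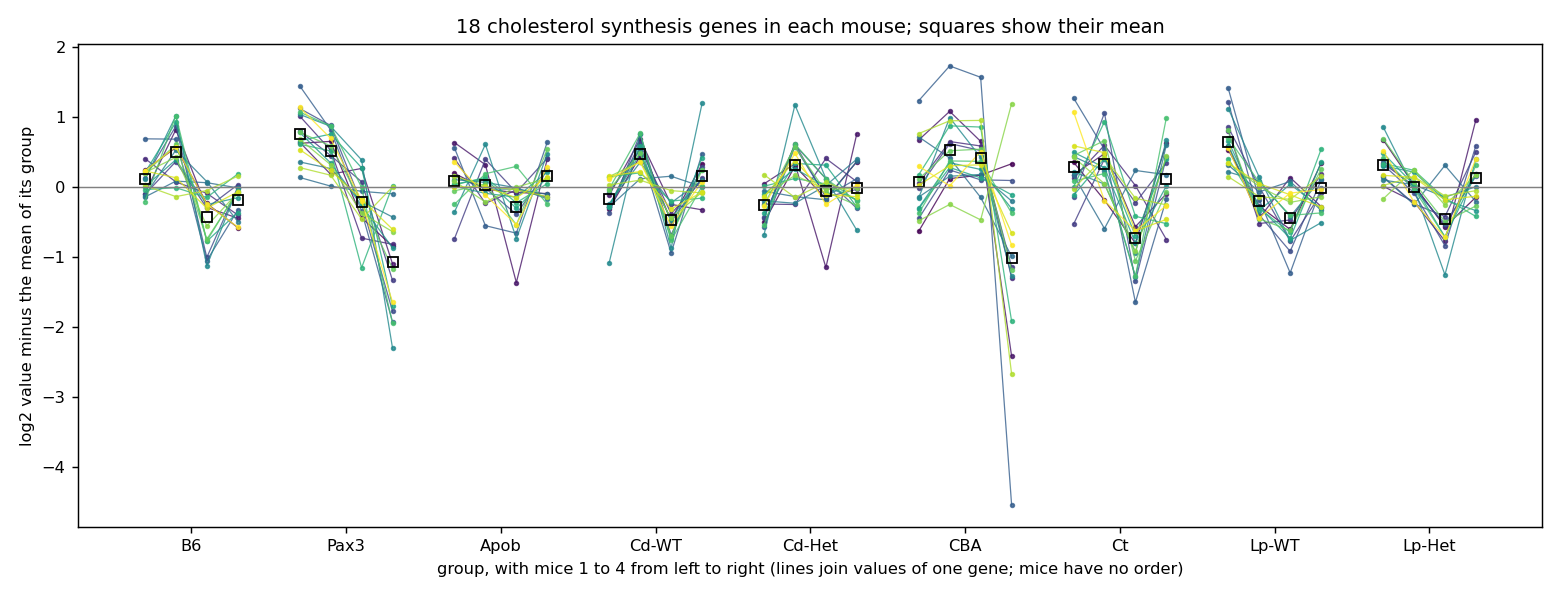
Log2 value of each of 18 synthesis genes minus its group mean (vertical) in the 4 mice of each of the 9 groups (horizontal); a line joins the values of one gene, squares are the mean of the 18, and mice have no order. In Pax3 the means run from 0.76 to -1.06 around the group mean, and in Apob from 0.16 to -0.28.

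The 4 wild type groups are different stocks, and an F test over them called 3 of 26 members, Hmgcs1 (limma adjusted p = 0.00299), Lss (0.0207) and Hsd17b7 (0.0233), where 11.1% of all genes were called. Lp-WT mice had the lowest Hmgcs1 signals of the wild types, at 5632, 3223, 2551 and 4933. All but the highest of these lay below every CBA mouse, and all 4 lay below every B6 and Cd-WT mouse, whose lowest were 7994 and 7938. From the lowest group mean to the highest, the log2 values of Hmgcs1 ran Ct 11.62, Lp-Het 11.72, Lp-WT 11.93, Apob 12.39, Cd-Het 12.84, CBA 13.07, Cd-WT 13.42, Pax3 13.50 and B6 13.55. Neighbours in that order differed by less than the standard deviation of at least one of the pair, except Apob and Cd-Het. Lss was highest in CBA, whose lowest signal of 1253 exceeded all mice of the other 3 wild type groups. Hsd17b7 was at 1833 to 5901 in CBA, with CBA 4 highest. Without CBA 4 and Ct 3 the members called were Hmgcs1 (adjusted p = 0.0013), Lss (0.00819), Pmvk (0.0212) and Stard4 (0.0251), 4 of 26 where 14.9% of all genes were called, and Hsd17b7 was not (0.0572).

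The difference between lines was tested directly. Over the 5 effects, an F test called 0 of 26 members (2.56% of all genes), and 6 had an unadjusted p below 0.05 (17.3%). The member of smallest p was Hmgcs1 (limma adjusted p = 0.0988), so a lower Hmgcs1 in Ct and Apob than in the other lines was not established. Again 0 of 26 were called without CBA 4 and Ct 3 (4.26%), with 8 below an unadjusted p of 0.05 (20%) and Npc1 of smallest p (adjusted p = 0.0758). The mean effect of the 2 responsive lines minus that of the 3 resistant lines had 0 of 26 members called (0.148% of all genes) and 4 with an unadjusted p below 0.05 (11.1%). The member of smallest p was Insig1, 0.71 ± 0.22 (adjusted p = 0.183), and Npc1 had the largest value, 0.78 ± 0.30. The median member difference was 0.15. Without the 2 arrays 0 of 26 were called (0.46%), 4 had an unadjusted p below 0.05 (13.9%), and Npc1 (0.76 ± 0.23, adjusted p = 0.118) and Insig1 (0.55 ± 0.19, adjusted p = 0.157) were of smallest p.

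Genes around the pathway were counted from 4 further lists. In Ct 442 of 12836 genes were called lower (3.44%) and 468 higher with all arrays, and 1.83% were called without the 2 arrays. Of 9 further targets of the SREBP factors, 3 were called lower in Ct, namely Acss2 and Acly, which make acetyl-CoA, with differences of -2.19 ± 0.57 and -1.79 ± 0.39, and Srebf1, the gene of the lipogenic SREBP1, with a difference of -1.81 ± 0.35. Of these, Srebf1 was the only one called without the 2 arrays (-1.45 ± 0.30, limma adjusted p = 0.00515). Of 8 tested genes of SREBP processing and sterol-driven degradation, Ube2g2, a ubiquitin-conjugating enzyme, rose in Ct by 1.26 ± 0.22 and by 0.99 ± 0.22 without the 2 arrays. Mbtps2, the membrane protease that frees SREBP, was called only in Apob without the 2 arrays (-0.49 ± 0.13, adjusted p = 0.0344). Of 7 tested genes of sterol efflux and its receptors, Nr1h3, which encodes LXR alpha, rose in Ct by 0.84 ± 0.24 and was not called without the 2 arrays. Of 9 tested genes of the isoprenoid branches to dolichol, ubiquinone and protein prenylation, 0 were called in any of the 5 comparisons. In Pax3, Cd-Het and Lp-Het 0 genes of the 4 lists were called, and with all arrays 0 in Apob. With all arrays 0%, 0%, 0.0312% and 0.553% of all genes were called in these 4 comparisons.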

How the data were processed

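Signals are those of the authors, deposited as linear MAS5 intensity, 1 value per probe set and array, as the labels name the tool with no version; the 2% trimmed mean was 500.0 on the median array, as computed here. The probe table pairs 34945 probe sets with 1 gene symbol and 932 with several, and 9160 are unnamed here. To each signal 23.1 (the 20th percentile) was added before log2 was taken, so a fold change of dim genes is understated. Probe sets with a mean log2 above 6.51 (the 40th percentile, a signal of 68.1) were kept, and the one with the highest mean stood for a gene. All 36 arrays entered 1 limma fit (version 3.58.1, R 4.3.3) of group means with 27 residual degrees of freedom, eBayes with trend and two-sided tests, and calls needed a Benjamini-Hochberg adjusted p under 0.05. The procedure was tested on simulated data. Members, lists and motifs were chosen with earlier results of these data known. Members called in a comparison, or otherwise the 2 of smallest p, are given by mouse; Sqle and the members named for spread or non-overlap were added after their values were seen. The number of arrays, 4 per group, limits the precision. The labels call the arrays biological replicates. Replicate numbers did not pair the arrays (correlations of deviations from -0.15 to 0.21). Promoters are RefSeq sequences of GRCm38.p6. Python 3.11.15 with matplotlib 3.10.9 drew the figures.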

Additional observations from a re-analysis of the deposited data

Results flagged for a closer look

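Within groups of 4 mice, the gap between the highest or lowest mouse and the next, as a share of the group's range, exceeded Dixon's critical value in 9 of 243 sets of 4 mice (26 genes and the mean of the 18 synthesis genes, each in 9 groups), where chance flags about 1 in 20. CBA 4 accounted for 5 of the 9. It was the lowest CBA mouse for Ebp (0.948), Fdps (0.921), Scap (0.910) and Mvk (0.877), and the highest for Hsd17b7 (0.861). The GAPDH 3′ to 5′ ratio of that array was 52.5, and its part in these values was not tested.

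The other 4 were on arrays whose GAPDH ratio lay within the range of the 34. Their actin ratios were 2.81 (Lp-WT 4), 1.77 (Cd-Het 2), 2.65 (Ct 2) and 1.96 (Apob 3). Srebf2 had a signal of 304 in Lp-WT 4 and of 543 to 560 in the other Lp-WT mice (0.947). Sc5d was at 12771 in Cd-Het 2 and at 8899 to 9113 in the others (0.934). Ggps1 was at 184 in Ct 2 and at 328 to 344 in the others (0.922). Mvk was at 55.1 in Apob 3 and at 228 to 290 in the others (0.842).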

How the results depend on the processing

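In Apob 0 members were called, where 71 of 12836 genes were. With array weights 5 were called (744 genes). With all probe sets in the fit 1 was called, counted only over those that stand for a member (209 of 25941 probe sets). Leaving out CBA 4 and Ct 3 gave 2 (329 of 12820 genes). Only the arrays compared gave 3 (192 of 12877), and a replicate block 1 (Hmgcs1, with 84 of 12836). In Ct 4 were called, where 910 of 12836 genes were. With array weights 7 were called (778 genes), and with median centring 3 (652 of 12831). Without probe sets whose names end in _x_at, _s_at or _a_at 3 were called (639 of 11129). That setting leaves out Pmvk, whose only probe set is of this kind, and another probe set stands for Hmgcs1. Leaving out CBA 4 and Ct 3 gave 0 (234 of 12820), as did only the arrays compared (33 of 12956). With 1 mouse left out 1 to 6 were called, 1 (Insig1) without Ct 3 (362 of 12829) and 6 without Ct 1 (1461 of 12852). Array weights gave 2 for responsive minus resistant lines (267 of 12836 genes), 10 for differences among effects (1547) and 15 for the 4 controls (4018). Differences among effects otherwise gave 0, except 1 with the replicate block (351 of 12836 genes) and 0 to 2 with 1 mouse left out. The 2 without Pax3 4 (329 of 12848 genes) were Hmgcs1 and Cyp51. The 4 controls gave 3 with all arrays, 4 without CBA 4 and Ct 3 (1916 of 12820 genes) and 2 to 4 with 1 mouse left out. There were 2 without CBA 2 (1451 of 12833 genes) or CBA 3 (1593 of 12836), and 4 without Lp-WT 1 (1314 of 12831). The 4 controls gave 1 without probe sets ending in _x_at, _s_at or _a_at (1138 of 11129). The replicate block, run for the 5 mutant comparisons, responsive minus resistant lines and differences among effects, changed no other count of members. Array weights also moved the calls over all genes, to 744 in Apob (from 71), 4018 over controls (from 1423) and 1547 over effects (from 329). In Ct 910 genes were called, from 33 with only the arrays compared to 1461 without Ct 1; in Apob the lowest was 25, without Apob 3. Lp-Het gave 4 and up to 170, Pax3 0 and up to 37, Cd-Het 0 and up to 1, and responsive minus resistant 19, from 7 to 267. The cause was not tested. Median member differences kept their sign under every setting run in Cd-Het, Apob and Ct. With one mouse left out they ranged in Ct from -0.81 (without CBA 4) to -0.27 (without Ct 3), in Apob from -0.62 to -0.37, in Cd-Het from -0.52 to -0.31, in Pax3 from -0.33 to 0.20 and in Lp-Het from -0.22 to 0.10. Without probe sets ending in _x_at, _s_at or _a_at, and so without Pmvk, the Ct median was -0.30.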
